A study of Mus musculus with 35 samples.

Results

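The collagen genes described here are the mouse protein-coding genes whose symbol is made of Col, a number, the letter a and a number, such as Col1a1. The rule found 44 genes among the 21627 protein-coding genes on chromosomes 1 to 19 and X of the RefSeq annotation of GRCm38.p6 (mm10), 11 of them fibrillar collagens and 33 of other kinds. The study profiled the reprogramming of mouse embryonic fibroblasts (MEF) to induced pluripotency with chromatin immunoprecipitation sequencing (ChIP-seq) of H3K27ac, a histone acetylation found at active promoters and enhancers, and of KLF4, a transcription factor of the reprogramming cocktail. H3K27ac was measured in 12 libraries, 2 of MEF, 3 of day 3, 3 of day 6, 2 of day 9 and 2 of embryonic stem cells (ESC), and KLF4 in 10 libraries, 2 each of day 3, day 6, day 9, ESC in serum and ESC in 2i. MEF, day 3, day 6 and day 9 cells all carried a polycistronic cassette of Oct4, Klf4, Sox2 and c-Myc (OKSM) in the Col1a1 locus, itself a collagen gene, together with the M2rtTA transactivator in the Rosa26 locus, on the strain C57BL/6 x 129. MEF were kept without doxycycline and were not sorted, although the label of the MEF input library, not analysed here, lists doxycycline and ascorbic acid. Day 3 cells were an unsorted bulk population after induction with 1 µg/ml doxycycline in the presence of 50 µg/ml ascorbic acid, whereas day 6 and day 9 cells had the same treatment and were sorted for SSEA1, a surface marker of cells that move toward pluripotency. ESC were of the line V6.5, with the same strain label and no cassette in their genotype label, kept unsorted on irradiated feeder cells with serum and LIF, and the 2i cultures also received 1 µM of a MEK inhibitor and 3 µM of a GSK3 inhibitor. Both MEF and both ESC libraries of H3K27ac belonged to the batch DG-3458, both day 9 libraries to EA-3702, and day 3 and day 6 libraries to both of these batches. The study's design text calls the replicates biological, but the labels name no animal or culture, so p-values measure the spread between these libraries.

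Collagens are triple-helical proteins of the extracellular matrix. Fibroblasts secrete the fibrillar collagens of types I, III and V, which assemble into the fibrils that give connective tissue its strength, while type IV collagen forms the sheet of the basement membrane and type VI collagen forms beaded filaments around cells. FACIT collagens sit on fibril surfaces, network-forming collagens build lattices, and transmembrane collagens stay anchored in the plasma membrane. Silencing of the fibroblast programme, to which the fibrillar collagens belong, is an early step of reprogramming, and KLF4 is a zinc finger factor that binds GC-rich CACCC-type sites.

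The files are peak lists called for each library, with no read counts, so sequencing depth is unknown. The value of a gene is therefore the length, in bp, of its window (the gene with 2.5 kb on each side) that the peaks of a library cover. Covered length grows with the length of the gene and of the whole list, and is a level of peak coverage rather than of acetylation density or transcription. The H3K27ac lists held 17493 to 88347 peaks and covered 9.21 to 83.51 Mb, the shortest being the 3 of day 6 with 9.21 to 19.93 Mb. KLF4 lists held 21129 to 34640 peaks and covered 4.45 to 15.16 Mb. In cell mixtures, fewer cells with a peak and a weaker peak in each cell cannot be told apart. Of the 12 fibroblast markers checked, 12 had an H3K27ac peak in both MEF libraries, with a summed covered length of 156.5 and 156.8 kb, against 19.2 and 20.2 kb in ESC. Of 10 pluripotency markers, 9 and 10 had a peak in the ESC libraries, with 132.3 and 133.5 kb against 6.4 and 7.0 kb in MEF. In MEF, 5 of the 10 had a peak in both libraries and 1 in a single library. In the limma test described below, 8 were higher in ESC than in MEF and 2 were lower. Over all tested genes 18.9% were higher and 30.2% lower.

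H3K27ac over the collagen genes was most extensive in MEF, shortest at day 6, and intermediate at day 3, at day 9 and in ESC. A peak lay over 36 of the 44 genes in each MEF library, over 25 to 31 in the day 3 libraries, 8 to 11 at day 6, 23 and 29 at day 9, and 20 and 22 in ESC. Across all protein-coding genes the share with a peak was 67.6% in both MEF libraries and 67.9% and 68.2% in ESC, so it was nearly level where the collagen share went from 81.8% in both MEF libraries to 45.5% and 50.0%. At day 6 the collagen share was 18.2% to 25.0%, against 46.6% to 52.3% of all genes. Summed over the 44 windows, peaks covered 295.5 and 292.7 kb in MEF, 68.2 to 109.8 kb at day 3, 14.3 to 31.1 kb at day 6, 57.8 and 64.1 kb at day 9, and 40.7 and 36.7 kb in ESC. As a share of everything a list covered, the collagen windows took 0.357% and 0.351% in MEF and 0.0615% and 0.059% in ESC, and between these ends 0.285% to 0.287% at day 3, 0.143% to 0.156% at day 6, and 0.118% and 0.129% at day 9. The fibrillar genes alone held 101.0 and 102.7 kb in MEF and 4.0 and 4.4 kb in ESC.

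**Figure D1:**
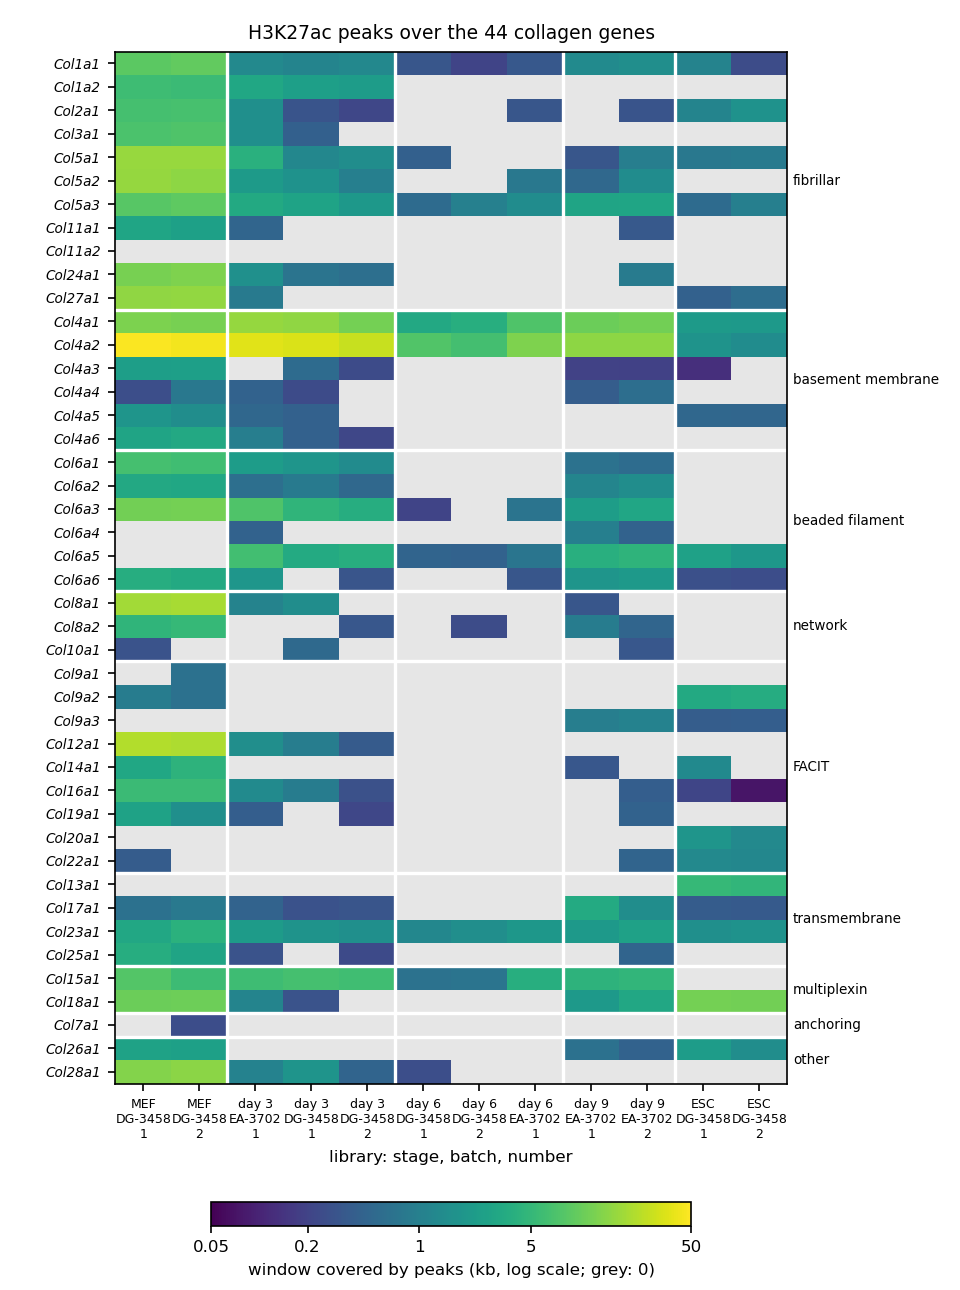
H3K27ac peak coverage of the 44 collagen gene windows (rows, ordered by collagen group) in the 12 libraries (columns, with stage, batch and number); colour gives the covered length in kb on a log scale and grey marks 0 bp. The MEF columns are filled for 36 genes in each library, the day 6 columns for 8 to 11, and Col13a1 and Col20a1 are filled in ESC alone.

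**Figure D2:**
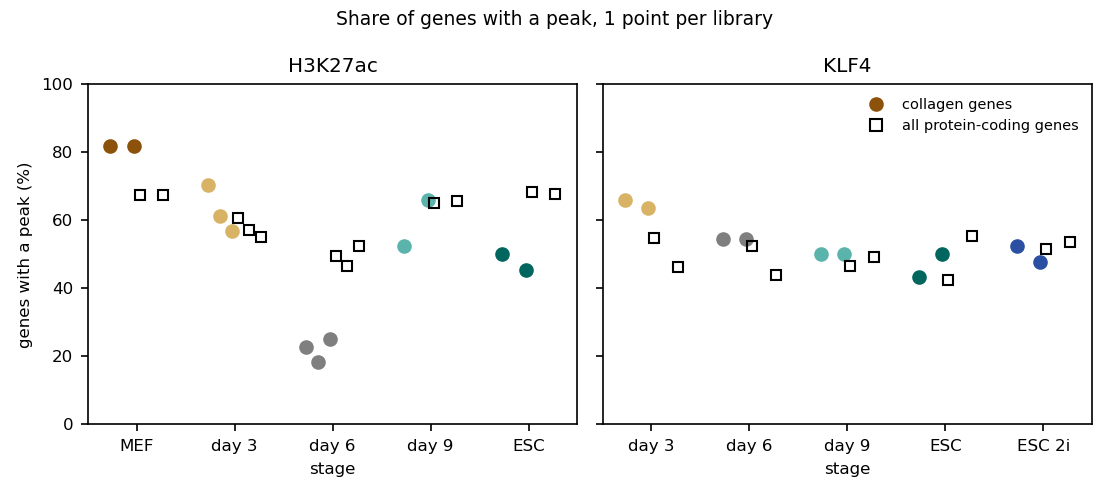
Percentage of genes with a peak in their window for H3K27ac (left) and KLF4 (right), by stage, with 1 point per library; filled circles are the 44 collagen genes and open squares all 21627 protein-coding genes. For H3K27ac the collagen points stand above the squares in MEF (81.8% against 67.6%) and below them at day 6 and in ESC. For KLF4 they stand above them at day 3 (63.6% and 65.9% against 46.2% and 54.7%). They also stand above them at day 6 (54.5% against 52.5% and 43.9%) and day 9 (50.0% against 46.6% and 49.1%).

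Between MEF and ESC, H3K27ac coverage changed at 36 of the 41 collagen genes that could be tested (limma on log2 of covered length plus 200 bp, Benjamini-Hochberg over 16460 genes, adjusted p of at most 0.05), against 49.1% of all tested genes. It was lower in ESC at 30 collagen genes, a direction taken by 30.2% of all tested genes, and higher at 6 genes, a direction taken by 18.9%. Testing needed a peak in at least 2 of the 12 libraries, which Col11a2, Col7a1 and Col9a1 did not have, and a gene can pass this filter through MEF alone or ESC alone, as Col13a1 and Col20a1 did, so that its difference follows from the filter. The median log2 difference, ESC minus MEF, was -3.49 over the tested collagen genes and -0.28 over all tested genes. After each list was scaled to the same total covered length the 2 medians were -2.72 and 0.01, and the calls were 26 lower and 6 higher. With this scaling 47.3% of all 16460 tested genes were called, 3783 lower and 4009 higher. Among all tested genes, 61.5% of the calls were lower in ESC without this scaling and 48.5% with it. A fit of batch DG-3458 alone holds the same 4 MEF and ESC libraries, so only the estimate of the spread and the set of tested genes could change. Its count was also 36, with Col17a1 called and Col4a5 not, and 62.2% of all genes tested in it were called. Leaving out 1 of the 4 libraries gave collagen medians of -4.017 to -3.395, beside -0.375 to -0.231 over all tested genes. Fewer genes were then called, among collagens and all tested genes alike. Some calls of collagen genes higher in ESC were lost when either ESC library was left out. By presence alone, 17 collagen genes (38.6%) were marked in both MEF libraries but in no ESC library, against 5.46% of all genes, and 4 (9.09%), namely Col13a1, Col20a1, Col6a5 and Col9a3, had the converse, against 6.15%. Where a gene was at 0 bp in a whole stage its fitted difference depends on the added 200 bp, and its standard error draws on libraries that are all at 0. Such collagen genes are therefore given below by their covered lengths and adjusted p. The adjusted p draws on the same spread and may come out too small.

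Promoter windows, 250 bases before to 50 after a transcription start, were available from RefSeq (GRCm38.p6) as 38 windows for 35 of the 44 genes. An H3K27ac peak overlapped the window in both MEF libraries at 18 of the 38 (47.4%, against 53.0% of 21044 promoters), in every day 3 library at 7 (33.6% of all), in every day 6 library at 2 (25.7% of all), in both day 9 libraries at 5 (50.4% of all) and in both ESC libraries at 5 (47.9% of all). KLF4 peaks overlapped 8 of the 38 in both day 3 libraries (21.1%, against 18.1% of all promoters), 9 at day 6 (23.7%, against 19.8%), 4 at day 9 (10.5%, against 22.4%), 8 in serum ESC (21.1%, against 18.8%) and 5 in 2i ESC (13.2%, against 20.5%). The 5 windows printed here stand for the patterns the results turn on: Col1a2 and Col3a1, which had promoter acetylation in MEF and none from day 6 on, Col4a2, whose window overlaps the divergent Col4a1 promoter and kept acetylation in every library, Col15a1, bound by KLF4 in both libraries of day 3, day 6, day 9 and serum ESC, and Col13a1, bound in both serum ESC libraries and in no library of day 3, day 6 or day 9. Capitals mark the letters GGGNGTGG (a core of KLF-type sites), CCAAT (a box of many promoters) and TATAAA, each searched on both strands, and every sequence is written 5′ to 3′ along the strand of the gene.
Col1a2 (chr6:4505368-4505667, + strand): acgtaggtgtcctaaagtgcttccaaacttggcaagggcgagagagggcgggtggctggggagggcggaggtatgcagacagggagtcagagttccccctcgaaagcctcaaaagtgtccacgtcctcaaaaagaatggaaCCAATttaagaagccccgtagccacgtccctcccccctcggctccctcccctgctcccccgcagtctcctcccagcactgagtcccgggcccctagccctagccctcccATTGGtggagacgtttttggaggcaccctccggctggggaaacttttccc
Col3a1 (chr1:45311288-45311587, + strand): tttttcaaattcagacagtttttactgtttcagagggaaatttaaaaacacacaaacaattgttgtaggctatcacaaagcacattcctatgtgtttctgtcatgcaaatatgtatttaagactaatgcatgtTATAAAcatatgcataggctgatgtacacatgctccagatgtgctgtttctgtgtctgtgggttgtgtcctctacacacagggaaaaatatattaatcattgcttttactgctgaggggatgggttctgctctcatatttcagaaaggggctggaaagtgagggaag
Col4a2 (chr8:11312555-11312854, + strand): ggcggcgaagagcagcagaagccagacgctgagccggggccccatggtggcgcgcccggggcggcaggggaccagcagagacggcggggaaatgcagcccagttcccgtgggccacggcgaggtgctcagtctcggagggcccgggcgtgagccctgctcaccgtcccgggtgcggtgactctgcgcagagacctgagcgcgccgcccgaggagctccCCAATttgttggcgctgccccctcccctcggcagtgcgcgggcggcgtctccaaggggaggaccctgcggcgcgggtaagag
Col15a1 (chr4:47207762-47208061, + strand): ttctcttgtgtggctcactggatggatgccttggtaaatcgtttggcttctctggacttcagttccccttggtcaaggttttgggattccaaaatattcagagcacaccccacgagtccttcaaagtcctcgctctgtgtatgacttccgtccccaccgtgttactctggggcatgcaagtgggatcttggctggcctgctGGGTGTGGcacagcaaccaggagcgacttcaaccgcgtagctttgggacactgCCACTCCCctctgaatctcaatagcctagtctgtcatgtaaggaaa
Col13a1 (chr10:61979059-61979358, - strand): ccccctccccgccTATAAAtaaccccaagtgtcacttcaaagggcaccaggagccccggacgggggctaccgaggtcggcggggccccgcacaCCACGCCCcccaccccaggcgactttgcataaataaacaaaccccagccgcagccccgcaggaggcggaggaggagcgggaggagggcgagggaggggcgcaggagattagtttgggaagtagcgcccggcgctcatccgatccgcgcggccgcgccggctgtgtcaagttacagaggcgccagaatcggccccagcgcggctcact
The Col15a1 window held GGGNGTGG on both strands, Col13a1 held it once beside a TATAAA, Col1a2 held CCAAT on both strands, Col4a2 held CCAAT once, and Col3a1 held TATAAA and neither of the others. GGGNGTGG was found in 11 of the 38 collagen windows (28.9%) and in 19.6% of all 21044, CCAAT in 34.2% and 38.5%, and TATAAA in 13.2% and 12.7%. These matches describe letters, not occupied sites, and in the 5 printed windows no match overlapped another.

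All 10 tested fibrillar collagen genes had lower H3K27ac coverage in ESC than in MEF, with a median log2 difference of -4.31. Over all tested genes 30.2% were lower, and the median was -0.28. Col1a2, which encodes the second chain of type I collagen, was covered over 5839 and 5601 bp in MEF and 3066, 2463 and 2246 bp at day 3, and over 0 bp in every library of day 6, day 9 and ESC (adjusted p = 5.54e-08 for MEF against ESC, limma). The MEF, day 3 and later values did not overlap. Col3a1, the type III chain that co-assembles with type I in soft tissue, was covered over 7025 and 7491 bp in MEF and over 1561, 419 and 0 bp at day 3, with 0 bp in all 7 later libraries (adjusted p = 0.000411, limma). Col5a1, a type V chain that starts fibril assembly, had 17243 and 17349 bp in MEF, 4057, 1239 and 1468 bp at day 3, 420, 0 and 0 bp at day 6, 318 and 958 bp at day 9, and 788 and 845 bp in ESC. Its difference was -4.11 ± 0.68 (SE) on the log2 scale (adjusted p = 0.00086, limma). The coverage in ESC lay mainly in a region over its start, chr2:27884670-27890493, that was marked in every MEF, day 3, day 9 and ESC library. Its partner Col5a2 had 16550 and 15320 bp in MEF, 2166, 1694 and 980 bp at day 3, 0, 0 and 797 bp at day 6, 513 and 1448 bp at day 9, and 0 bp in both ESC libraries. Col5a3, the third type V chain, had 8214 and 8909 bp in MEF and 553 and 991 bp in ESC, a difference of -3.21 ± 0.36 on the log2 scale (adjusted p = 8.16e-05, limma). Col5a3 was covered in all 12 libraries, with 1992 to 3283 bp at day 3, 564 to 1438 bp at day 6 and 2789 and 2889 bp at day 9, and its region chr9:20792259-20795472 inside the gene had a peak in each of them.

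The remaining fibrillar genes are linked to cartilage or are minor chains. Col2a1, the main collagen of cartilage, was covered over 6494 and 6630 bp in MEF and over 1125 and 1703 bp in ESC (-2.09 ± 0.76 on the log2 scale, adjusted p = 0.0463, limma). It was not called with scaled lists, equal numbers of top peaks, the number of peaks or no filter. Its day 3, day 6 and day 9 libraries lay between 0 and 1560 bp. Col11a1, a cartilage fibril chain, had 2927 and 2569 bp in MEF, 482 bp in 1 library of day 3, 343 bp in 1 library of day 9 and 0 bp in the others, ESC included (adjusted p = 0.000637, limma), whereas Col11a2 had no H3K27ac peak in any of the 12 libraries. Of 5 chondrocyte markers, 3 had a peak in each MEF library and Acan and Matn1 had none. Their summed coverage was 9.6 and 10.0 kb in MEF, 0.0 to 0.5 kb from day 3 to day 9, and 1.5 and 1.9 kb in ESC, and their part in the Col2a1 and Col11a1 values was not tested. The minor fibrillar genes carried long domains in MEF, with 12171 and 13073 bp over Col24a1 and 15748 and 16226 bp over Col27a1. Col24a1 had 1610, 714 and 626 bp at day 3, 0 and 894 bp at day 9, and 0 bp at day 6 and in ESC. Col27a1 had 858 bp in 1 library of day 3, 0 bp in the other 7 libraries before ESC, and 432 and 590 bp in ESC, in the region chr4:63215317-63218388 near its start that both MEF libraries also held.

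Col1a1, which encodes the main chain of type I collagen, kept some coverage in every library, but from day 6 on only at the other end of the gene. Its window (gene at chr11:94936224-94953042) was covered over 8831 and 9573 bp in MEF, 1277, 1137 and 1252 bp at day 3, 317, 205 and 338 bp at day 6, 1374 and 1538 bp at day 9, and 1104 and 252 bp in ESC. MEF stood far above every other library, and the difference between MEF and ESC was -3.61 ± 0.405 on the log2 scale (adjusted p = 7.51e-05, limma). The gene was taken as transcribed toward higher coordinates, which is general knowledge and was not read from the files, and the names start side and end side rest on it. Split at the middle of the gene, the start side held 8035 and 8325 bp in MEF, 592, 824 and 476 bp at day 3, and 0 bp in all 7 libraries of day 6, day 9 and ESC. The end side held 796 and 1248 bp in MEF, 313 to 776 bp at day 3, 205 to 338 bp at day 6, 1374 and 1538 bp at day 9, and 1104 and 252 bp in ESC. Much of the later signal came from a region at the end of the gene, chr11:94951707-94953346, whose middle is 516 bp inside the higher gene boundary. It had a peak in every library of day 3, day 6, day 9 and ESC and in no MEF library. KLF4 peaks were present on both sides, at chr11:94936765-94937488 near the start in all 10 KLF4 libraries and at chr11:94952114-94952783 near the end in all 8 libraries of day 3, day 6, day 9 and serum ESC but in neither 2i library. The KLF4 peak near the start thus lay where H3K27ac was absent from day 6 on. The OKSM cassette lies in this locus in every library of MEF, day 3, day 6 and day 9, and its part in these values was not tested.

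**Figure D3:**
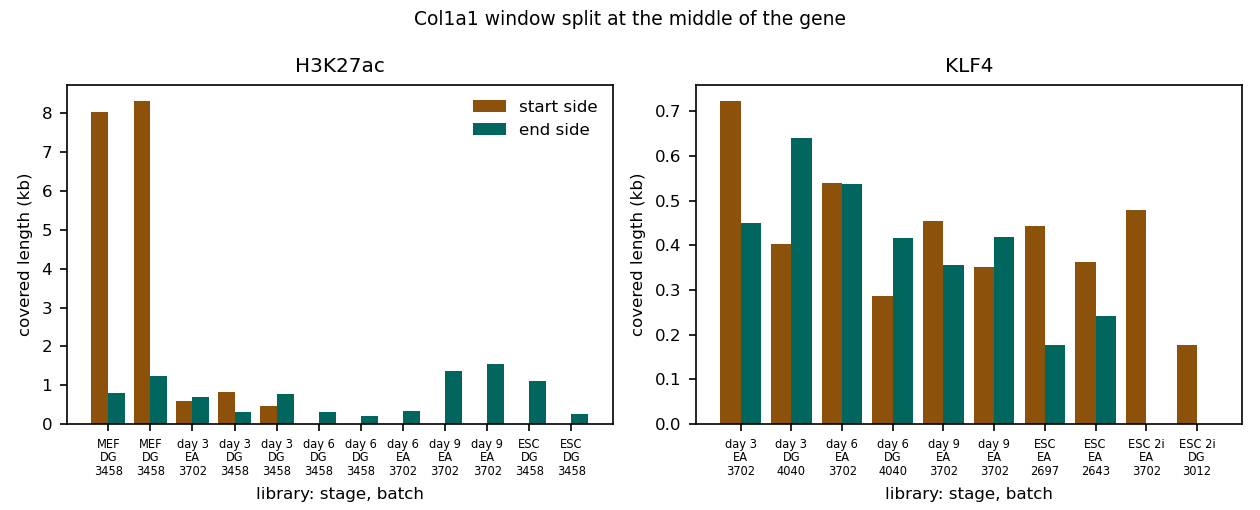
Covered length in kb on the start side and the end side of the Col1a1 window for each H3K27ac library (left) and each KLF4 library (right), labelled by stage and batch; bars start at 0. H3K27ac on the start side reaches 8035 and 8325 bp in MEF and is 0 bp from day 6 on, while KLF4 on the start side is present in all 10 libraries with 176 to 724 bp.

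Among the basement membrane collagens, the 6 tested genes all had lower coverage in ESC than in MEF, with a median log2 difference of -2.90. Over all tested genes 30.2% were lower, and the median was -0.28. Scaling to equal list length lost the calls of Col4a4 and Col4a5, and with equal numbers of top peaks only Col4a1, Col4a2 and Col4a3 were called. The number of peaks, no filter, the DG-3458 fit and the block on replicate numbers also lost the call of Col4a5. The neighbouring genes Col4a1 and Col4a2, which encode the ubiquitous type IV chains and share a divergent promoter, kept more coverage at day 3 and day 6. Col4a2 had the longest coverage of any collagen gene in MEF, 47556 and 43691 bp, and kept 36825, 33477 and 27809 bp at day 3. It had 7707, 6409 and 13196 bp at day 6, 15470 and 15548 bp at day 9, and 1722 and 1454 bp in ESC. The MEF to day 3 difference was -0.49 ± 0.29 on the log2 scale and did not pass (adjusted p = 0.181, limma), whereas MEF to ESC was -4.68 ± 0.32 (adjusted p = 2.13e-06, limma). Col4a1 had 12640 and 12010 bp in MEF, and the day 3 libraries with 16864, 16004 and 11729 bp overlapped them. Its later values were 3228, 3786 and 7472 bp at day 6, 10596 and 11418 bp at day 9, and 2183 and 2072 bp in ESC. The region over the shared promoter, chr8:11311094-11317301, had a peak in all 12 libraries. A region inside Col4a1, chr8:11226272-11228971, had no peak in MEF and a peak in every library of day 3, day 6, day 9 and ESC, and KLF4 peaks lay in it in both libraries of day 3, day 6, day 9 and serum ESC. After scaling to equal list length, Col4a1 and Col4a2 were called higher at day 3 than in MEF, and lower at day 9 than at day 6 where the unscaled fit called them higher. The tissue-restricted chains were covered less, with 2385 and 2487 bp for Col4a3, 261 and 796 bp for Col4a4, 1825 and 1492 bp for Col4a5, and 2850 and 3236 bp for Col4a6 in MEF. In every day 6 library these 4 genes were at 0 bp, and in ESC they had 0 to 501 bp. Each of the pairs Col4a1 and Col4a2, Col4a3 and Col4a4, and Col4a5 and Col4a6 lies head to head, so peaks between partners count for both windows.

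Of the 6 beaded filament genes, 4 were lower in ESC than in MEF, Col6a5 was higher and Col6a4 was not called. Over all tested genes 30.2% were lower and 18.9% higher. Col6a1, Col6a2 and Col6a3, the chains of the classical type VI collagen of connective tissue, had 6544 and 6043 bp, 3238 and 3039 bp, and 11565 and 11853 bp in MEF, and each had 0 bp in both ESC libraries. At day 3 they held 1384 to 2264 bp, 521 to 872 bp and 3731 to 7528 bp. At day 6, Col6a1 and Col6a2 were at 0 bp in every library, and at day 9 they were again covered, with 681 and 577 bp for Col6a1 and 1151 and 1459 bp for Col6a2. Col6a3 had 204, 0 and 714 bp at day 6, and 2361 and 2967 bp at day 9. Part of the later Col6a3 signal lay at the end of the gene, in chr1:90767321-90771164, which had no peak in MEF and a peak in every day 3 and day 9 library, whereas the 2 regions nearest its start in MEF had no day 9 peak.

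Col6a5, a type VI chain related to Col6a3, had no H3K27ac peak in MEF and 6217, 3456 and 3802 bp at day 3. It fell to 469, 443 and 728 bp at day 6, stood at 3948 and 4420 bp at day 9, and had 2611 and 1941 bp in ESC. MEF at 0 bp lay below every other library, and Col6a5 was the single collagen gene called higher at day 3 (adjusted p = 1.49e-06, limma), a direction taken by 2.23% of all tested genes. Its acetylated regions changed between stages. The region chr9:105891718-105893117 had a peak in every library of day 3, day 6 and day 9 and in no ESC library, and KLF4 lay at the overlapping chr9:105892408-105893124 in both libraries of each of these days and in no ESC library. Col6a4 and Col6a6 are the related chains. Col6a4 was covered in 1 library of day 3 (438 bp) and both of day 9 (981 and 439 bp), and Col6a6 over 3661 and 3331 bp in MEF and 272 and 256 bp in ESC. Col6a6 was no longer called in MEF against ESC with scaling, with the number of peaks or with 50 kb flanks.

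FACIT collagens changed in both directions between MEF and ESC, with 4 of 8 tested genes lower and 4 higher. Over all tested genes 30.2% were lower and 18.9% higher. Among the 4 higher genes Col20a1 passed the filter through ESC alone, so its call is no separate evidence. Col12a1, which decorates fibrils in tissues under tension, had the longest coverage of the group in MEF, 22539 and 21594 bp, fell to 1507, 925 and 367 bp at day 3, and was at 0 bp in all 7 later libraries (adjusted p = 1.07e-06, limma). Its relatives Col14a1, Col16a1 and Col19a1 had 1578 to 5612 bp in MEF and 0 to 1331 bp in ESC. With 50 kb flanks the Col14a1 difference turned to 1.26 on the log2 scale. Col9a2, a chain of the cartilage type IX collagen, had 909 and 653 bp in MEF and 3293 and 3566 bp in ESC (adjusted p = 1.28e-05, limma). It had 0 bp in the 8 libraries of day 3, day 6 and day 9, so the spread behind this p comes mostly from libraries at 0 bp. With 50 kb flanks its log2 difference turned to -0.68. Col9a3 was at 0 bp until day 6, at 966 and 1065 bp at day 9, and at 383 and 392 bp in ESC, and its window includes parts of Ogfr and Tcfl5. With 50 kb flanks its difference was called in the opposite direction, at -1.09. Col20a1 had peaks in the ESC libraries alone, 1839 and 1281 bp, in a window shared with Arfgap1, and Col22a1 had 1302 and 1215 bp in ESC against 371 and 0 bp in MEF. Col9a1 had a peak of 655 bp in 1 MEF library and none elsewhere.

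Transmembrane collagens differed in the stage at which they were marked. Col13a1, a transmembrane collagen of cell adhesion sites, was at 0 bp in all 10 libraries from MEF to day 9 and at 5063 and 4758 bp in ESC. It passed the filter only through ESC, so its call is no separate evidence. Col17a1, the transmembrane collagen of epithelial hemidesmosomes, had 665 and 811 bp in MEF, 282 to 450 bp at day 3, 0 bp in all day 6 libraries, 3409 and 1479 bp at day 9, and 372 and 355 bp in ESC. Both day 9 libraries stood above every other, and the region over its start, chr19:47691259-47692699, had a peak in both day 9 libraries and in no other library. Over the 5 epithelial markers, the summed covered length was 35.6 and 38.5 kb at day 9, against 0.8 to 2.5 kb at day 6 and 46.7 kb in both ESC libraries, with all 5 genes marked in both stages, and its part in the Col17a1 values was not tested. Col23a1, another membrane collagen, was covered in all 12 libraries with 1230 to 4122 bp, and Col25a1 went from 3657 and 2801 bp in MEF to 0 bp in ESC. Much of the Col23a1 coverage lay in chr11:51583551-51586052 at its end, next to Phykpl.

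Multiplexins carry the endostatin-like fragments of vessel and basement membrane zones, and the 2 genes had different courses. Col15a1 overlapped MEF at day 3, with 5842, 6570 and 5962 bp after 7916 and 5707 bp in MEF (adjusted p = 0.912, limma). It had 673, 704 and 3807 bp at day 6, 4359 and 4735 bp at day 9, and 0 bp in both ESC libraries. At day 6 the library of batch EA-3702 stood apart from the others of that day. Col18a1 had 10667 and 10759 bp in MEF, 1123, 291 and 0 bp at day 3, 0 bp at day 6, 2118 and 3144 bp at day 9, and 11700 and 11354 bp in ESC. The difference between MEF and ESC was not called (adjusted p = 0.93, limma), with shorter coverage in every library between these stages. Of its regions, 4 were in both MEF and both ESC libraries and in no library of day 3 or day 6, among them chr10:77163479-77166459, which ends just inside the gene's start. Among the network collagens, Col8a1, which forms lattices beneath endothelia, had 19289 and 20185 bp in MEF and 0 bp in ESC, and Col8a2 had 4538 and 5154 bp and 0 bp. Col10a1, the collagen of hypertrophic cartilage, had at most 532 bp in any library. Col7a1, the anchoring fibril collagen, had 256 bp in 1 MEF library and nothing elsewhere. Col28a1 had 14009 and 15244 bp in MEF and 0 bp in ESC, and Col26a1 had 2674 and 2545 bp in MEF, 0 bp at day 3 and day 6, and 2260 and 1477 bp in ESC.

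**Figure D4:**
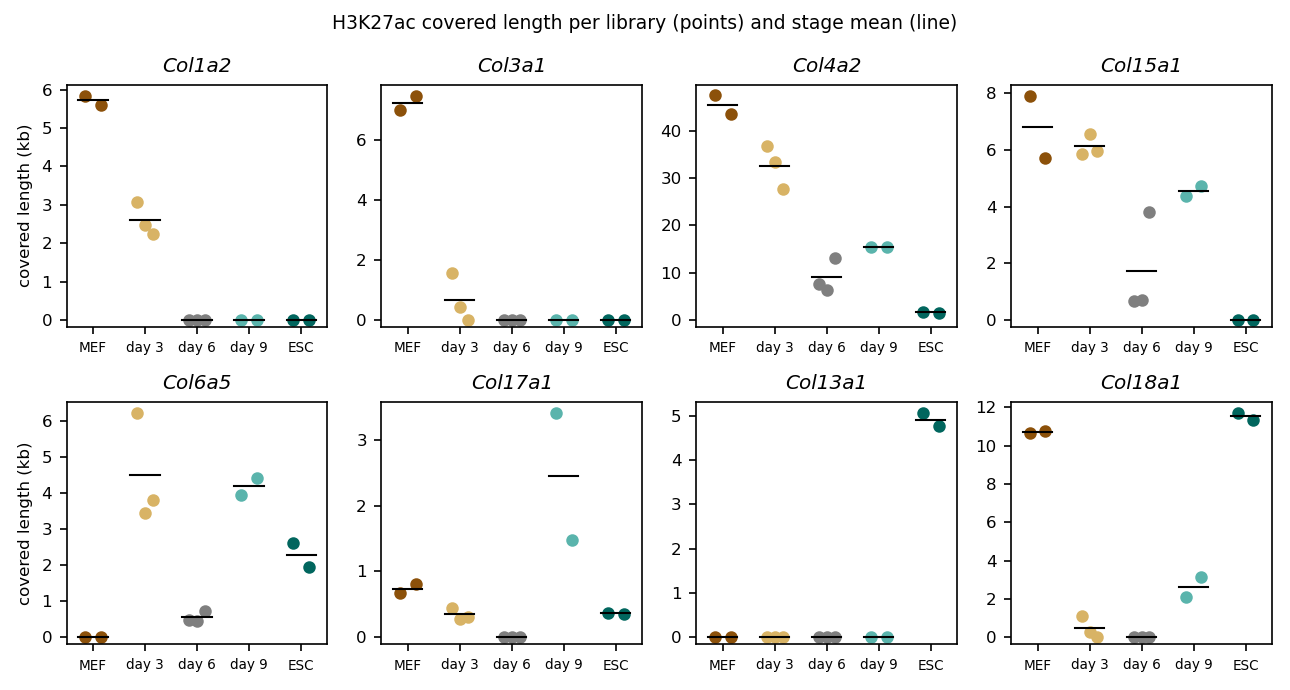
H3K27ac covered length in kb for 8 collagen genes in each library (points) with the stage mean (line); the vertical scale differs between panels. Col1a2 and Col3a1 reach 0 bp by day 6, Col6a5 is at 0 bp in MEF alone, Col17a1 is highest at day 9, Col13a1 is covered in ESC alone, and Col18a1 is at 10667 bp or more in MEF and ESC.

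Stage by stage, the 3 steps from MEF to day 9 were fitted. From MEF to day 3, coverage was lower at 28 collagen genes and higher at 1, against 50.6% and 2.23% of all tested genes (52.8% in either direction), and all 10 tested fibrillar genes were among the lower ones. Scaling to equal list length left 5 of these 10 called (Col1a1, Col3a1, Col11a1, Col24a1 and Col27a1) and turned Col1a2 to 0.28 on the log2 scale. The number of peaks also left 5, with Col1a2 at 0.61 and Col5a3 at 0.40. The collagen median was -2.28 and that of all tested genes -0.88. With scaling to equal list length these became -1.35 and 0.12, 17 collagen genes were lower, and 4 were higher, namely Col6a5, Col15a1, Col4a1 and Col4a2. Over all tested genes 95.8% of the calls were lower at day 3 without scaling and 37.9% with it (2684 lower and 4396 higher). Within batch DG-3458 alone, 32 collagen genes were called, and 69.9% of all genes tested in that fit. From day 3 to day 6, which also compares bulk with sorted cells, 18 were lower and 0 higher (limma, where 23 of 41, and 6305 of all 16460, had an unadjusted p under 0.05 in either direction), against 24.7% and 0.68% of all tested genes, and scaling gave 16 lower and 1 higher, Col23a1. Equal numbers of top peaks gave 7 lower of 27 tested collagen genes (10.4% of all tested genes called), and a q-value of at most 0.01 gave 11 of 40 (19.9% of all). Among all tested genes, 97.3% of these calls were lower at day 6 without scaling and 26.3% with it (1934 lower and 5426 higher). The genes that fell included Col1a2, Col6a1, Col6a2 and Col12a1, which went to 0 bp in every day 6 library. From day 6 to day 9 coverage was higher at 18 collagen genes and lower at 0 (limma, where 20 of 41, and 12732 of all 16460, had an unadjusted p under 0.05 in either direction), a direction taken by 75.1% of all tested genes, with 0.0182% lower. The 18 included all 6 beaded filament genes but 2 of 10 fibrillar genes, Col1a1 and Col5a3, and in both the day 9 peaks lay away from the gene's start. Scaling turned this into 9 higher and 3 lower (Col4a1, Col4a2 and Col23a1) among collagens. The 9 included Col6a1, Col6a2, Col6a4 and Col6a5 of the beaded filament group and no fibrillar gene. Among all tested genes, 0.0243% of the calls were lower at day 9 without scaling and 62.0% with it (4480 lower and 2741 higher). Day 9 libraries were all of batch EA-3702, so batch and stage were partly confounded in this step. With batch as a term in the fit, 15 collagen genes were called, all higher at day 9, and 55.3% of all tested genes. Equal numbers of top peaks left 3 of 27 tested collagen genes, all higher (51.3% of all tested genes in either direction). These 3 were Col1a1, Col4a3 and Col5a3, with no beaded filament gene among them. The replicate number as a block left 10 higher and 1 lower (35.2% of all).

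Counting a gene as gained or lost only where every library of a stage had a peak and no library of the other did, 3 collagen genes (6.82%) lost their marking from MEF to day 3, namely Col9a2, Col14a1 and Col26a1, against 6.52% of all genes, and Col6a5 gained it, against 0.703%. By day 6, 21 collagen genes (47.7%) that were marked in both MEF libraries had no peak in any library, against 13.1% of all genes, and Col6a5 was the gene with the converse, against 0.393%. The 8 genes lost between day 3 and day 6 (18.2%, against 3.23%) were Col1a2, Col24a1, Col4a6, Col6a1, Col6a2, Col12a1, Col16a1 and Col17a1, and 0 were gained, against 0.199%. From day 6 to day 9, 9 were gained (20.5%, against 8.87%) and 0 lost (0.00462% of all genes). These 9 were Col4a3, Col4a4, Col6a1, Col6a2, Col6a4, Col9a3, Col17a1, Col18a1 and Col26a1, with no fibrillar gene among them. Between day 9 and ESC, 8 were lost (18.2%, against 2.66%), among them Col6a1, Col6a2, Col6a3 and Col6a4, and 5 were gained (11.4%, against 5% of all genes), namely Col13a1, Col20a1, Col27a1, Col4a5 and Col9a2.

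Merged into regions, the H3K27ac peaks formed 475 regions in collagen windows. Of these, 179 (37.7%) were in both MEF libraries and no ESC library, against 23.3% of all 179223 regions, and 23 (4.84%) were the converse, against 17.5%. Another 14 (2.95%, against 8.86%) were in all 4 libraries. In the fibrillar windows the MEF regions made up 54 of 119 (45.4%) and the ESC regions 1 (0.84%). Within 50 kb of the genes the corresponding shares of 895 regions were 32.7% and 9.94%. A MEF region that was gone from every day 3 library was the most common of the 3 day 3 patterns counted, in collagen windows and in all gene windows alike. It took 140 of 475 regions (29.5%, against 17.9% of the regions in all gene windows), spread over 30 collagen genes. Regions kept in all MEF and all day 3 libraries numbered 30 (6.32%, against 11.9%). KLF4 peaks of both day 3 libraries lay in 3 of these 140 (2.14%, against 2.29%). By contrast 12 regions in 7 genes had no MEF peak and a peak in every day 3 library (2.53%, against 2.27%), 7 of them with KLF4 in both day 3 libraries (58.3%, against 52.9%). They lay in Col1a1, Col4a1, Col5a3, Col6a3, Col6a5, Col15a1 and Col24a1. That in Col5a3, chr9:20774841-20777207, had peaks in every library of day 3, day 6 and day 9 and none in ESC.

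KLF4 was found at more collagen genes at day 3 than later. Peaks lay over 29 and 28 of the 44 genes at day 3, 24 and 24 at day 6, 22 and 22 at day 9, 19 and 22 in serum ESC, and 23 and 21 in 2i ESC. Among all genes the share was 54.7% and 46.2% at day 3 and 42.5% and 55.4% in serum ESC. Collagens exceeded it at day 3 (65.9% and 63.6%) and lay near it in ESC (43.2% and 50.0%). They were also above it at day 6, with 54.5% in both libraries against 52.5% and 43.9% of all genes. At day 9 they had 50.0% in both libraries, against 46.6% and 49.1%. In all 10 libraries 8 collagen genes had a peak (18.2%, against 23.5% of all genes): Col1a1, Col5a3, Col4a1, Col6a1, Col6a2, Col6a4, Col23a1 and Col18a1. Col10a1, Col20a1, Col3a1, Col7a1 and Col9a1 had none in any library. Between day 3 and day 9, 7 collagen genes (15.9%, against 3.93% of all genes) went from a peak in both libraries to none, Col2a1, Col4a3, Col4a6, Col8a1, Col16a1, Col19a1 and Col28a1, and 0 did the converse, against 2.66%. Between day 3 and serum ESC the counts were 10 (22.7%, against 3.7%) and 2 (4.55%, against 3.38%), and between day 9 and serum ESC they were 2 (against 3.51% of all genes) and 2 (against 4.35%). Col3a1, whose acetylation was gone by day 6, thus had no KLF4 peak in its window at any stage measured.

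**Figure D5:**
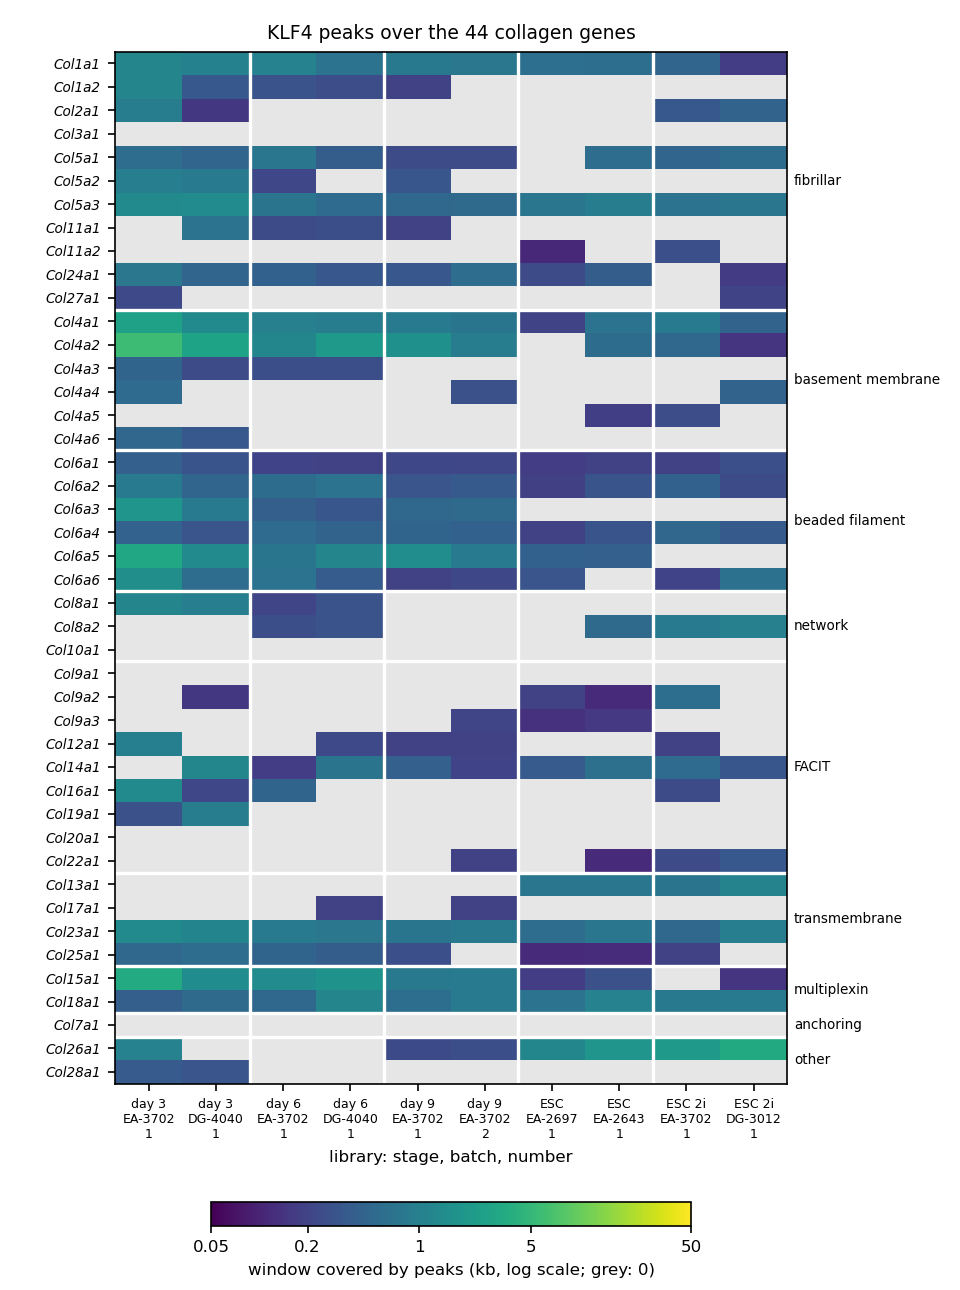
KLF4 peak coverage of the 44 collagen gene windows (rows) in the 10 libraries (columns, with stage, batch and number), as covered length in kb on a log scale; grey marks 0 bp. Coverage is longest at Col4a2 in the day 3 libraries (5741 and 2716 bp), Col13a1 is bound in the 4 ESC libraries alone, and Col3a1 is empty throughout.

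The longest KLF4 coverage at day 3 lay over Col4a2, with 5741 and 2716 bp. It shortened to 1180 and 2037 bp at day 6, 1583 and 939 bp at day 9, 0 and 572 bp in serum ESC, and 501 and 142 bp in 2i. Col15a1 had 3396 and 1440 bp at day 3, 1404 and 1754 bp at day 6, 822 and 887 bp at day 9, and 175 and 276 bp in serum ESC. Of its KLF4 sites, that near its start, chr4:47207715-47208329, was bound in both libraries of day 3, day 6, day 9 and serum ESC. Col6a5 had 3123 and 1381 bp at day 3, 422 and 415 bp in serum ESC, and 0 bp in 2i. Col6a3 had 1829 and 883 bp at day 3, 318 to 543 bp at day 6 and day 9, and 0 bp in all 4 ESC libraries. Col1a2 had 1153 and 334 bp at day 3, 292 and 254 bp at day 6, 188 and 0 bp at day 9, and 0 bp in ESC, with the site shared by the day 3 and day 6 libraries at chr6:4506800-4507406, behind its start. At each of these 5 genes the EA-3702 list of day 3, which covers 15.16 Mb against 8.17 Mb for the DG-4040 list, gave the longer value. In the opposite direction, Col13a1 had 0 bp at day 3, day 6 and day 9 and 756 and 761 bp in serum ESC and 720 and 1107 bp in 2i, from a site at its start and another at chr10:61928900-61929628 inside the gene. Col26a1 had 1060 and 0 bp at day 3, 0 bp at day 6, 237 and 262 bp at day 9, 1204 and 1847 bp in serum ESC, and 2057 and 3316 bp in 2i. Col23a1 stayed between 521 and 1360 bp in all 10 libraries and Col5a3 between 511 and 1391 bp.

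In the test of KLF4 coverage, 0 of 39 testable collagen genes were called between day 3 and day 9 (limma, Benjamini-Hochberg over 14421 genes), where 0.0901% of all tested genes passed, 0.0485% lower and 0.0416% higher at day 9. At an unadjusted p under 0.05 there were 15, beside 2231 of the 14421 genes tested. Other settings gave 0 to 7 calls, all lower at day 9, and Col8a1 was among them in each setting that gave any. Over all tested genes these settings called 0.714% with a pseudocount of 1000 bp, 1.11% without flanks, 0.915% with scaling, 3.79% with the number of peaks and 5.08% with batch as a term. Between day 3 and serum ESC, 10 were called, 9 lower in ESC (4.14% of all tested genes) and 1 higher (0.444%), with 4.58% of all tested genes called in either direction. The lower genes were Col6a3, Col8a1, Col15a1, Col4a2, Col4a6, Col5a2, Col6a5, Col19a1 and Col28a1, and the higher gene was Col13a1. Of these, Col4a6, Col19a1 and Col28a1 passed the filter through day 3 alone and Col13a1 through ESC alone, so their 4 calls follow from the filter and are no separate evidence, and with no filter all 4 were lost, as was Col6a5. Of the fibrillar genes, 1 of 10 tested passed, Col5a2, with 952 and 874 bp at day 3 and 0 bp in ESC. Its call was lost with equal numbers of top peaks, with the number of peaks and with 50 kb flanks. Col1a2 was called lower in ESC with scaling, the number of peaks, no flanks and 50 kb flanks, and Col2a1 with the number of peaks. The difference was -2.52 ± 0.46 on the log2 scale for Col15a1 (adjusted p = 0.016, limma), whose call was lost with the number of peaks. For Col6a5 the adjusted p was 0.0379 (limma). The Col6a5 call was also lost with scaling, with the number of peaks and with 50 kb flanks. The calls of this fit rested on few libraries, for collagens and for all genes alike. Without the EA-3702 library of day 3, or without the EA-2697 library of ESC, 0 collagen genes and 0 of all tested genes were called. Without the EA-2643 library of ESC 5 collagen genes and 2.9% of all were called, and without the DG-4040 library of day 3 these were 11 and 7.33%. Peaks with a q-value of at most 0.01 gave 0 of 27 tested collagen genes and 0.0574% of all. Day 3 and serum ESC shared no batch, so batch and stage cannot be told apart here. Scaling moved the median of all tested genes from -0.37 to 0.015 and gave 7 lower and 2 higher collagen genes. Of all 14421 tested genes, 564 were then lower and 506 higher, and the share of lower calls went from 90.3% to 52.7%.

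KLF4 sites were compared with H3K27ac peaks as a description without a test. The 45 sites bound in both day 3 libraries in collagen windows, in 23 genes, overlapped H3K27ac of both MEF libraries in 40.0% of cases, against 49.7% of all 17908 such sites, and of all day 3 libraries in 44.4%, against 54.5%. They overlapped H3K27ac of both ESC libraries in 11.1%, against 51.3%. KLF4 itself was kept at 57.8% of them at day 6 (60.4% of all), 40.0% at day 9 (57.9% of all) and 26.7% in serum ESC (41.7% of all). Of the 30 collagen sites bound in both serum ESC libraries, 4 (13.3%) overlapped H3K27ac in both ESC libraries, against 72.7% of all 16508. The day 9 sites overlapped H3K27ac of day 9 at 62.5% of 24 collagen sites and 78.1% of all 19421, but with H3K27ac of day 3 the order was the other way, 50.0% against 41.6%, and with that of day 6 the shares were 33.3% and 32.3%. Across merged regions, 28 of 191 KLF4 regions in collagen windows (14.7%) were bound in both day 3 libraries and no serum ESC library, against 8.41% of all regions, and 10 were bound at all 4 stages (5.24%, against 6.62%).

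Genes whose products make, cross-link, bind or degrade collagen were examined beside the collagens. H3K27ac coverage was lower in ESC than in MEF at 14 and higher at 3 of 28 makers and cross-linkers, where 30.2% of all tested genes were lower and 18.9% higher, with a median log2 difference of -1.14 beside -0.28 for all tested genes and -3.49 for the collagens. Loxl2 and Lox, lysyl oxidases that cross-link fibrils, went from means of 18535 and 7602.5 bp in MEF to 0 bp in ESC. Adamts2, which trims the procollagen N-propeptide, went from 18906.5 to 204.5 bp (-5.77 ± 0.79 on the log2 scale, adjusted p = 0.000281, limma), and the prolyl hydroxylase subunit P4ha3 from 17057.5 to 732 bp. Serpinh1, the collagen chaperone, did not pass, with means of 4910 and 2364.5 bp (adjusted p = 0.0663, limma), and it was chosen after its values were seen. The 8 receptors were all lower in ESC, against the same 30.2% of all tested genes, with a median of -2.47. Among them Itga11, a fibroblast collagen receptor subunit, differed by -4.99 ± 0.475 (adjusted p = 2.53e-05, limma) and Ddr2, a receptor kinase for fibrillar collagen, by -4.07 ± 0.61 (adjusted p = 0.000468, limma). Of 7 tested genes of degradation, 5 were lower and 1 higher, beside those 30.2% and 18.9% of all. Mmp2, a gelatinase of fibroblasts, went from a mean of 8560.5 bp to 276 bp and Ctsk, a collagen-degrading protease, from 1993.5 bp to 0 bp, while Mmp9, another gelatinase, went from 0 bp to 1163 bp.

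The number of fibroblast markers with a peak went from 12 in both MEF libraries to 8 or 9 at day 3, 4 or 5 at day 6, 5 or 6 at day 9, and 7 or 8 in ESC. Between MEF and ESC, 11 of 12 were lower in ESC and Fn1 was higher, beside 30.2% and 18.9% of all tested genes. Their summed coverage was 34.4 to 52.4 kb at day 3, 3.2 to 12.7 kb at day 6, and 14.1 kb or less at day 9. From day 6 to day 9, 2 of the 12 were called higher, with a median log2 difference of 0.00, where 75.1% of all tested genes were higher with a median of 1.26, and with scaling 62.0% of the calls over all genes were lower. Their summed coverage was longer in ESC than at day 9, whereas that of the collagen windows was shorter. Postn, Thy1 and Dcn had no peak in either ESC library. ESC were grown on feeder cells, which are usually fibroblasts, and their part in the ESC values was not tested. The 5 endothelial markers all had a peak in both MEF libraries, with a summed coverage of 8.0 and 10.0 kb, and 4 of them were lower at day 3 (50.6% of all tested genes were), with a median log2 difference of -1.93. At day 3 their coverage was 3.6 to 5.8 kb, with Cdh5, Kdr and Emcn at 0 bp in every library. At day 6 it was 0.4 to 4.1 kb, at day 9 5.3 and 6.1 kb, and in ESC 24.0 and 24.2 kb. In ESC 3 of the 5 genes were marked and 3 were lower than in MEF (30.2% of all tested genes were). Their part in the values of Col4a1, Col4a2, Col8a1, Col15a1 and Col18a1 was not tested. Of 5 blood markers 4 had a peak in each MEF library (8.9 and 9.1 kb) and 2 in each ESC library (8.0 and 8.1 kb), while muscle and neural lists covered at most 2.5 and 2.8 kb in any library.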

How the data were processed

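Peak lists of 22 ChIP-seq libraries (12 of H3K27ac, 10 of KLF4) were used, and 13 input libraries were not analysed here. Per the submitters' processing notes, cutadapt 1.8.1, Bowtie2 2.2.5, MACS2 2.1.1 and deepTools 2.3.6 were used with mm10, and the lists were deposited for each sample. The control used for peak calling is not given in the sources used here. Each deposited peak carries the authors' score, a fold enrichment, and 2 −log10 values, for the p-value and the q-value, which were used only to rank or filter peaks within a list. No read counts are given, so the depth is unknown. Identical intervals between replicate lists numbered 0 to 15.

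Covered bp per gene window (2.5 kb flanks, peaks merged within a library, overlap of at least 1 bp) were computed in Python 3.11.15 with pandas 2.3.3 and numpy 2.4.6 and plotted with matplotlib 3.10.9. They were tested with limma 3.58.1 (R 4.3.3, trend and robust) on log2 of bp plus 200, all 5 stages of a mark in 1 fit, for genes with a peak in at least 2 libraries, with Benjamini-Hochberg adjustment over all tested genes and calls at an adjusted p of at most 0.05. The fits had 7 (H3K27ac) and 5 (KLF4) residual degrees of freedom, and 6 comparisons were made. The scripts were tested on simulated data. Named with values were the fibrillar genes, called genes, the member of each other group with the longest coverage in MEF or ESC, and up to 4 called genes per list of other genes. The members and lists were chosen with earlier results of these data known. Alternatives were another pseudocount, equal numbers of top peaks, a q-value limit of 0.01, no flanks or 50 kb flanks, scaling to total covered length, the number of peaks, no filter, batch or replicate number in the fit, and leaving out each library.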

Additional observations from a re-analysis of the deposited data

How the results depend on the processing

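Between MEF and ESC, 17 of the 36 called collagen genes, 7 of them fibrillar, were called under all 11 other settings, where a gene not tested under a setting counts as not called. Leaving out 1 library gave collagen medians (log2) of -4.017 to -3.395 there, beside -0.375 to -0.231 over all tested genes. Between MEF and day 3 the collagen medians were -2.471 to -2.128, beside -1.024 to -0.749. Between day 3 and day 6, 16 to 23 collagen genes were lower and 0 higher, with 17.3% to 43.2% of all tested genes called. Between day 6 and day 9 the collagen medians were 0.829 to 1.441, beside 1.106 to 1.475. For KLF4 between day 3 and day 9 they were -1.044 to -0.451, beside -0.48 to 0.075. For KLF4 between day 3 and ESC, where leaving out some libraries ended all calls, they were -1.118 to -0.638, beside -0.769 to 0. A stage left with 1 library is assumed to vary like the others. Between MEF and day 3, equal numbers of top peaks gave 19 calls of 27 tested collagen genes (16 lower and 3 higher, 38.6% of all tested genes). With 50 kb flanks 34 were lower and 2 higher (64.4% of all called). Scaling gave 17 lower and 4 higher (43.0%), and the number of peaks gave 18 (17 lower, 27.3%). Between day 3 and day 6, top peaks gave 7 of 27 (7 lower, 10.4% of all). The q-value limit of 0.01 gave 11 of 40 (11 lower, 19.9% of all), and scaling gave 16 lower and 1 higher (44.7%). Between day 6 and day 9, top peaks gave 3 of 27 (3 higher; 51.3% of all), 50 kb flanks 32 of 43 (32 higher; 87.1%), scaling 3 lower and 9 higher (43.9%), and the number of peaks 11 (11 higher; 23.2%). For KLF4 between day 3 and day 9, a pseudocount of 1000 bp gave 1 (1 lower, 0.714% of all) and no flanks 3 (3 lower, 1.11%). Scaling gave 1 (1 lower, 0.915%), the number of peaks 7 (7 lower, 3.79%) and batch as a term 4 (4 lower, 5.08%). For KLF4 between day 3 and ESC, the q-value limit gave 0 of 27 (0 lower and 0 higher, 0.0574% of all). No filter gave 5 (5 lower and 0 higher, 2.2%), and scaling gave 7 lower and 2 higher (7.42%). Fits with batch or the replicate number for KLF4 between day 3 and ESC were not run, since these stages share no batch.

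The cause of the following reversals was not tested. With 50 kb flanks the MEF to ESC difference (log2) became 1.26 at Col14a1, 0.17 at Col23a1, -0.68 at Col9a2 and -1.09 at Col9a3. From MEF to day 3, scaling gave 0.28 at Col1a2 and 0.44 at Col23a1, and the number of peaks gave 0.61 at Col1a2, 0.40 at Col5a3 and 0.36 at Col6a1. From day 3 to day 6, top peaks gave 0.41 at Col28a1. From day 6 to day 9, scaling gave -0.085 at Col15a1, -1.30 at Col23a1, -0.68 at Col4a1, -1.13 at Col4a2 and -0.36 at Col5a3, and the number of peaks gave -0.54 at Col4a2.

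Replicate numbers were not taken to pair the libraries, since not every pair correlated above 0.1. Deviations from the stage means of same-batch libraries with the same number correlated at -0.012 to 0.111 over 15 H3K27ac pairs (mean 0.015). Over 7 KLF4 pairs they correlated at -0.048 to 0.161 (mean 0.051). Above 0.1 were 1 of the H3K27ac pairs and 2 of the KLF4 pairs, the latter both between day 3 and day 6 at 0.161. In a stage with 2 libraries the deviations mirror each other, so these pairs are not all separate values. Peak names in the 2 day 6 H3K27ac lists of batch DG-3458 carry each other's number; the sample labels were followed, and fits with these numbers exchanged were not run. With the replicate number as a block, 36 collagen genes were called between MEF and ESC, and 55.8% of all tested genes. Between MEF and day 3 this block gave 32 (67% of all), and between day 3 and day 6 it gave 19 (33% of all). Between day 6 and day 9 it gave 11 (10 higher and 1 lower, 35.2% of all). For KLF4 between day 3 and day 9 it gave 0 collagen genes and 0 of all tested genes. The fits of batch DG-3458 alone were chosen after seeing the data. Read depth is unknown, so a missing peak is not a measured absence of signal, and the short day 6 lists limit what day 6 can show.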
